A study of Mus musculus with 15 samples.

Results

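The 9 arrays of mice lacking a component of the Norrin pathway were compared as 1 set with the 6 arrays of wild-type mice, all 15 arrays of the series being used. The mutants were Fz4-/- mice, which lack the receptor Frizzled4, Lrp5-/- mice, which lack its coreceptor, and Norrin KO mice, which lack the ligand, with 3 arrays for each. Each array measured total RNA of endothelial cells taken acutely from adult retina with anti-PECAM beads. Each sample pooled 5 to 10 mice of a C57Bl6/129 mixed background that the labels describe as of mixed gender. The labels name no Cre driver and no line of origin for the alleles, and all 4 groups share the background, the age class and the purification. The deposited values were log2 signals, and 18194 genes were measured. A gene was called where the equal-weight mean of the 3 mutant groups differed from wild type at an adjusted p under 0.05 (limma, Benjamini-Hochberg over all genes). A called gene belonged to the core response where its difference from wild type had 1 sign in every mutant group, which held for 4208 of the 18194 genes. Spread between pools, which may be partly technical, is what the p-values measure.

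Norrin is a secreted ligand made in the retina by Müller glia. It binds Frizzled4 on endothelial cells together with the coreceptor Lrp5 and the tetraspanin Tspan12, stabilizes beta-catenin and so drives transcription through TCF and LEF factors. In retinal vessels the pathway is known for the growth of the deep capillary beds and for the blood-retina barrier, in which tight junctions seal the cells, dedicated carriers move nutrients and the fenestrae of peripheral capillaries are absent.

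The targeted genes were examined first. Fzd4 averaged 4.22 ± 0.30 (SD, n = 3) in Fz4-/- against 12.09 ± 0.20 (n = 6) in wild type. Lrp5 averaged 4.91 ± 0.45 (n = 3) in Lrp5-/- against 7.69 ± 0.27 (n = 6), so both labels were borne out by their own transcript. Ndp, the gene for Norrin, gave 4.13 ± 0.24 (n = 3) in Norrin KO and 4.44 ± 0.19 (n = 6) in wild type, near background on every array, and its signal checks nothing about the Norrin KO label. Of the 15 pan-endothelial markers 4 were higher and 4 lower, against 14% and 9.91% of all genes. With mean macrophage signal as a covariate 4 of these markers were higher and 2 lower. Their mean signal was 11.51 to 11.85 on the mutant arrays and 11.57 to 11.78 on the wild-type arrays. Pecam1, the antigen of the purification, differed by 0.07 and did not pass.

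Over all genes the correlation of a mutant with a wild-type array was 0.911 to 0.974, and that of arrays within a group 0.962 to 0.992. The first principal component held 43.2% of the variance and separated the 9 mutant arrays from the 6 wild-type arrays, while Lrp5-/- 1, wild type 4 and Lrp5-/- 3 stood apart on the second. The signal of 19 macrophage and microglia markers averaged 9.95 to 10.72 on the mutant arrays and 8.5 to 9.92 on the wild-type arrays, with no overlap. As a covariate this signal follows genotype in part, so calls can be lost for that reason alone. The gap between the 3′ and 5′ actin controls, which widens as RNA degrades, was 1.05 to 2.92 on the Norrin KO arrays and 0.56 to 1.04 on the other 12. Xist was low on all 3 Norrin KO arrays and high on all 3 Fz4-/- arrays. Eif2s3y, a gene of the Y chromosome, was at 9.57 and 9.63 on Fz4-/- 1 and 2, as in a mixed pool, and at 3.25 on Fz4-/- 3. Low Xist or low Eif2s3y also occurred on every Lrp5-/- array and on wild type 3 to 6. The labels call every pool mixed. The part of each of these in the results was not tested beyond the covariate fits given beside them. In pooled cells, fewer cells of a type and less RNA per cell cannot be told apart.

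**Figure D1:**
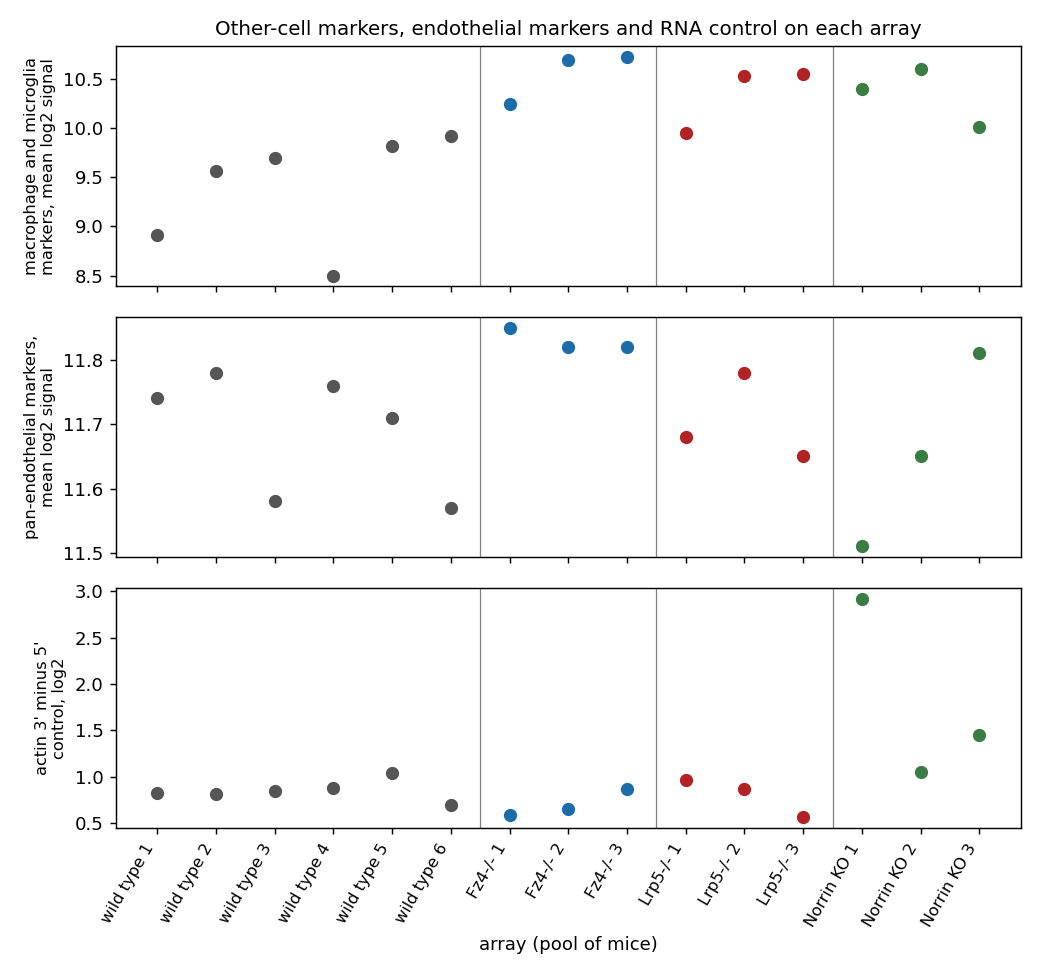
Mean log2 signal of macrophage and microglia markers (top), of pan-endothelial markers (middle) and the log2 gap between 3′ and 5′ actin control signals (bottom) on each of the 15 arrays, 1 point per pool of mice. Macrophage markers are at 9.95 to 10.72 on mutant arrays and 8.5 to 9.92 on wild-type arrays, endothelial markers overlap, and Norrin KO 1 has the widest actin gap, 2.92.

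The adult retinal endothelium of the 3 mutants differed from wild type in genes of many kinds. Genes of peripheral capillaries, of tip cells and of the matrix were higher, whereas carriers of the blood-retina barrier and genes typical of neural endothelium were lower. These lists and their members were chosen with earlier results of these data known, so their counts describe the response and do not test it. Each list count below is to be read against the shares of all genes given next. Over the mean of the mutants 4357 genes were called (23.9% of those tested), 2554 higher (14%) and 1803 lower (9.91%). The counts were 940 higher and 1114 lower with mean macrophage signal as a covariate, which turned the balance, and 1402 and 1013 with the replicate number as a block. With Fz4-/- 1 to 3 matched to wild type 1 to 3 and Lrp5-/- 1 to 3 to wild type 4 to 6 as a random block, an alternative chosen after the data were seen, they were 3492 and 2752. The core held 2464 higher genes (13.5%) and 1744 lower genes (9.59%), and 149 called genes had mixed signs. A stricter core of 1377 genes (7.57%) also passed in each mutant against wild type on its own, with 817 higher (4.49%) and 560 lower (3.08%). On its own Fz4-/- gave 1940 higher (10.7%) and 1107 lower genes (6.08%), Lrp5-/- 1025 (5.63%) and 1322 (7.27%), and Norrin KO 3036 (16.7%) and 1661 (9.13%). The 3 separate contrasts share the 6 wild-type arrays, so these counts are set by the rule and are not independent of each other. Once the mean macrophage signal was a covariate, 707 of the 1377 still passed in each mutant, and without the 3 arrays that stood apart 638 did.

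Genes of the stricter core that rose did so from a median wild-type signal of 7.72 to 9.44 in the mutants, a median difference of 1.37 on the log2 scale. Those that fell went from 10.11 to 8.59, a median of −1.16, and the median over all genes was −0.01. Large changes were few. A rise of at least 2 log2 units was seen for 198 genes and a fall of that size for 111, a rise of at least 4 for 28 and a fall for 19, and a rise of at least 6 for 7 and a fall for 3. Over the whole array set, the 9 mutant arrays lay above all 6 wild-type arrays for 866 genes (4.76%) and below them for 642 (3.53%). At the edge of the call, Stard9 lay just inside at −0.45 (adjusted p = 0.05) and Selplg just outside at −0.76 (adjusted p = 0.0501).

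Plvap, whose product makes up the diaphragms across fenestrae and caveolae, showed the largest rise. Its signal was 12.51, 12.49 and 12.59 on the Fz4-/- arrays, 12.28, 12.31 and 12.17 on the Lrp5-/- arrays, 12.65, 12.42 and 12.59 on the Norrin KO arrays, and 4.69 to 6.01 in wild type with a median of 5.34. All 9 mutant arrays lay far above all 6 wild-type arrays, and the difference was 7.10 ± 0.18 (SE, n = 9 against 6, adjusted p = 1.72e-12, limma). Gpihbp1, which holds lipoprotein lipase on the capillary wall, read 11.95, 12.00 and 11.92 in Fz4-/-, 10.96, 11.21 and 11.23 in Lrp5-/- and 12.10, 12.07 and 11.73 in Norrin KO against 4.27 to 5.52 in wild type (median 4.62). The groups did not overlap, the Lrp5-/- arrays being the lowest of the mutants, and the difference was 7.01 ± 0.16. Btnl9, a butyrophilin-like membrane protein, had mutant signals from 10.25 over a median of 11.31 to 11.66, and wild-type signals from 3.51 over 4.13 to 4.62. Its lowest mutant array was Lrp5-/- 1, and it rose by 7.0 ± 0.16. Col15a1, a collagen next to the basement membrane, read 11.38, 11.62 and 11.49 in Fz4-/-, 11.44, 11.35 and 11.14 in Lrp5-/- and 12.21, 11.64 and 12.23 in Norrin KO, against 3.80 to 5.36 in wild type. It rose by 6.93 ± 0.20 with no overlap.

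The tip cell proteoglycan gene Esm1 read 11.39, 11.87 and 11.52 in Fz4-/-, 11.71, 11.51 and 11.58 in Lrp5-/- and 11.12, 11.15 and 11.40 in Norrin KO. Wild-type arrays lay at 3.31 to 5.46, well below, for a rise of 6.82 ± 0.25. Aqp1, a water channel of non-barrier capillaries, lay between 11.40 and 12.62 on the mutant arrays and between 4.72 and 6.47 in wild type, a rise of 6.55 ± 0.22, and its lowest 3 mutant arrays were those of Norrin KO. Adam12, a metalloproteinase with a disintegrin domain, read 10.51, 10.55 and 10.44 in Fz4-/-, 9.21, 9.65 and 9.38 in Lrp5-/- and 10.96, 10.55 and 11.38 in Norrin KO against 3.87 to 4.34 in wild type. Every mutant array was above every wild-type array, but the Lrp5-/- arrays sat apart from the other mutants.

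The rest of the 15 largest rises lay between 4.93 and 5.94. They were Cd300lg, a receptor of capillary endothelium, Inhbb, the activin beta B subunit, and Kcne3, an accessory subunit of potassium channels, followed by Exoc3l2, which is related to an exocyst subunit, Cmah, which hydroxylates sialic acid, Selp, the adhesion receptor P-selectin, Apln, the peptide apelin, and Rbp7, a retinol-binding protein. Of the 15 genes, 8 stand on the list of peripheral capillary genes, which was chosen with earlier results of these data known. For 9 the wild-type mean was below 5, near background, where the size of a change is compressed. Selp had the widest wild-type spread, from 5.49 to 8.24 with a median of 7.49, and still lay below the lowest mutant array at 11.41.

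Slc38a5, an amino acid carrier for glutamine and its relatives, fell furthest. It read 2.71, 2.88 and 3.19 in Fz4-/-, 3.24, 4.63 and 3.36 in Lrp5-/- and 2.48, 2.65 and 2.21 in Norrin KO, against 10.22 to 10.50 in wild type (median 10.33). The groups were far apart, with a difference of −7.31 ± 0.18 (adjusted p = 1.39e-12). Slco1c1, the carrier of thyroxine, read 6.68, 6.82 and 7.64 in Fz4-/-, 6.16, 7.73 and 6.71 in Lrp5-/- and 6.63, 6.62 and 7.17 in Norrin KO, against 12.93 to 13.10 in wild type. It fell by 6.10 ± 0.21 on the log2 scale and did not order the mutants. Car4, a carbonic anhydrase anchored to the capillary surface, had mutant signals from 3.88 to 5.34 with a median of 4.37 and wild-type signals from 10.31 to 11.05, a fall of 6.07 ± 0.25. Its second probe set gave −6.54.

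Of the other large falls, Far2, a fatty acyl-CoA reductase, lay between 3.02 and 4.22 on the mutant arrays and between 9.0 and 9.91 in wild type. Slc19a3, the thiamine carrier, lay between 4.45 and 6.01 against 10.82 to 11.22, and Slc22a8, an organic anion carrier, between 4.25 and 6.12 against 10.38 to 11.01. For all 3 the groups were apart on every array, with differences of −5.78, −5.66 and −5.62. Pglyrp1 (−5.22), a peptidoglycan recognition protein, Islr2 (−4.72), a leucine-rich repeat membrane protein, the mitochondrial carbonic anhydrase Car5a (−4.51) and the sphingolipid enzyme Degs2 (−4.45) followed. The last 5 were Rad54b (−4.24) of DNA recombination repair, Ddc (−4.15), the decarboxylase of aromatic amino acids, Pllp (−4.14), the membrane protein plasmolipin, Stra6 (−4.13), the receptor that takes up retinol, and Slc9b2 (−4.13), a sodium-proton exchanger. In 7 of the 15 the mutant mean was below 5. Each of these 30 genes kept its direction and its call under every one of the 32 alternative settings in which it was measured. The 30 were picked for size among genes that passed in each mutant with no overlap of arrays. Their lack of overlap was thus set by the rule, and their stability largely so.

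**Figure D2:**
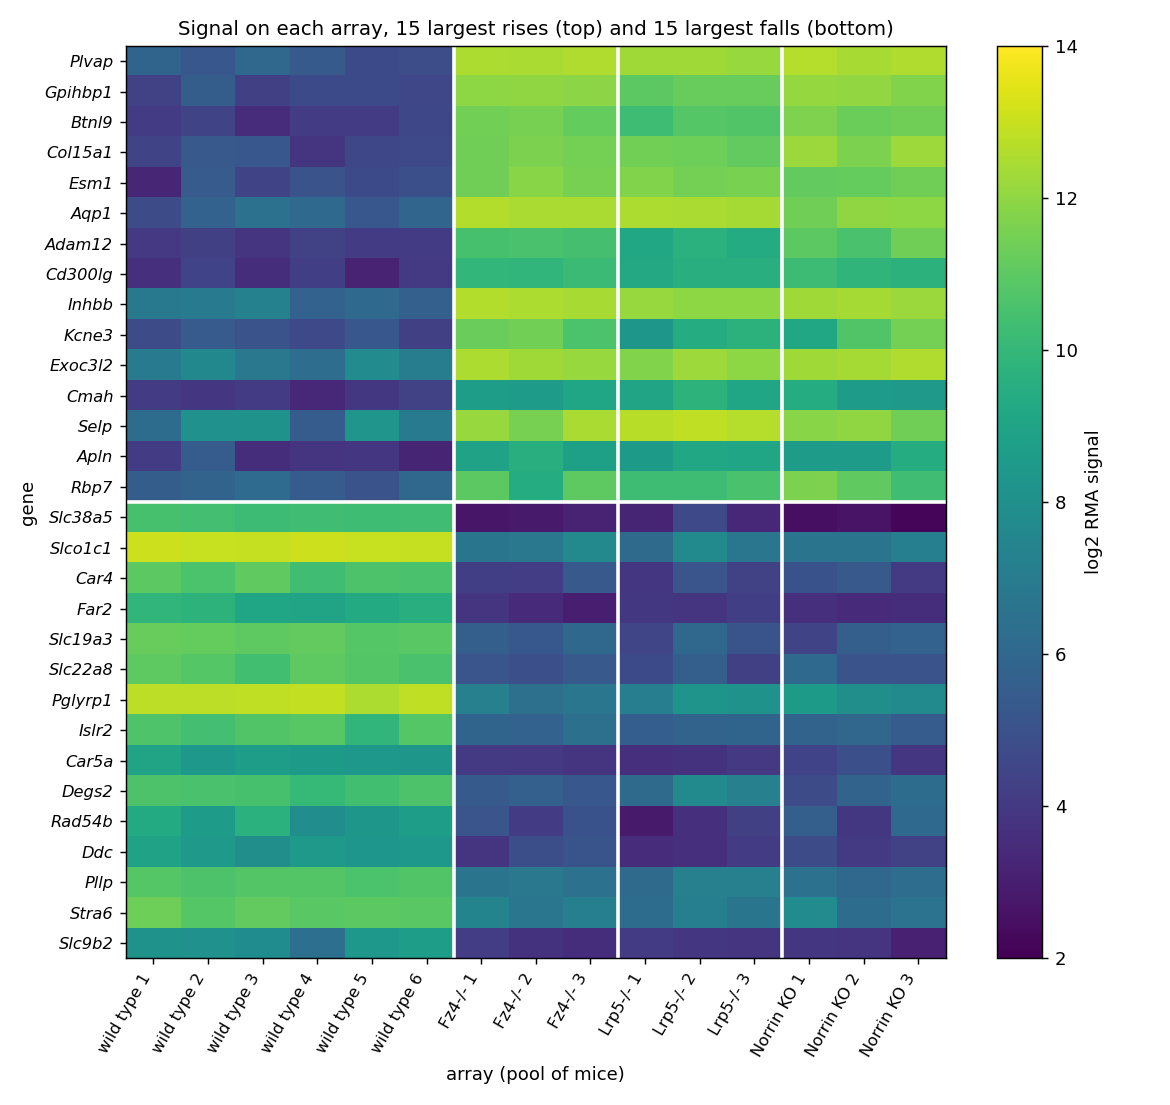
Log2 RMA signal, as colour, of the 15 genes with the largest rise (upper rows) and the 15 with the largest fall (lower rows) on each of the 15 arrays, in columns by group. Plvap goes from 4.69 to 6.01 in wild type to at least 12.17 on every mutant array, and Slc38a5 from at least 10.22 in wild type to at most 4.63.

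The promoters of these genes were read because beta-catenin acts through TCF and LEF factors, whose core motif is ATCAAAG. The 250 bases before the listed start were taken from RefSeq annotation on GRCm38.p6, which held 25 of the 30 genes. The motif was searched on both strands, together with its shorter form TCAAAG, which every ATCAAAG contains. ATCAAAG stood in the promoters of 5 of the 25, which are printed 5′ to 3′ on the gene's strand with the match in capitals, beside Col15a1, which holds only the short form, and Slc38a5, the largest fall, which holds neither. Cmah lies at chr13:24327154-24327403 on the plus strand, Selp at chr1:164115014-164115263 on the plus strand, Slc19a3 at chr1:83038449-83038698 on the minus strand, Islr2 at chr9:58204320-58204569 on the minus strand and Stra6 at chr9:58129099-58129348 on the plus strand. Col15a1 lies at chr4:47207762-47208011 on the plus strand and Slc38a5 at chrX:8271131-8271380 on the plus strand.
Cmah: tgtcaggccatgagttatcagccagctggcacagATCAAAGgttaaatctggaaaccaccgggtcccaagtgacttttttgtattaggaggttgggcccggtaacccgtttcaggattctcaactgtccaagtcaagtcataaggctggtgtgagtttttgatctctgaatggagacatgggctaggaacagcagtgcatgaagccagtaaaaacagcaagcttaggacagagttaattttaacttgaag
Selp: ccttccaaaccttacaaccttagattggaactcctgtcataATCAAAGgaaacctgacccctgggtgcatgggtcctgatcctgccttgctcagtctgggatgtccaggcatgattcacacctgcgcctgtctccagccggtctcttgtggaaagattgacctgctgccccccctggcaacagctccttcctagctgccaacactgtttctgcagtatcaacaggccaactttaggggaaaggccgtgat
Slc19a3: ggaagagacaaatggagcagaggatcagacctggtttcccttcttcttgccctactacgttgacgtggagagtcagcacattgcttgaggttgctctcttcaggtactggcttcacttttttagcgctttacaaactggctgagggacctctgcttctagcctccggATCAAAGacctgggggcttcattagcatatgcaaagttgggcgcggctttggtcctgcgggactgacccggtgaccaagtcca
Islr2: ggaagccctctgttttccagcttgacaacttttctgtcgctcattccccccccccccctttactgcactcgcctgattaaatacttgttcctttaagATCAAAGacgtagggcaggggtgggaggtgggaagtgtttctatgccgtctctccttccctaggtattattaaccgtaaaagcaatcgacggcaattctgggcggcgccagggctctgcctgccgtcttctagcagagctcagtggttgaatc
Stra6: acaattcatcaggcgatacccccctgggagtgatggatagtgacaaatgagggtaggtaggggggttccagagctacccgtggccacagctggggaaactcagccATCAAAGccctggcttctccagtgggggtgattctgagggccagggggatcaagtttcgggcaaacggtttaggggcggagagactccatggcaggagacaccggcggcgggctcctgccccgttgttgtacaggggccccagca
Col15a1: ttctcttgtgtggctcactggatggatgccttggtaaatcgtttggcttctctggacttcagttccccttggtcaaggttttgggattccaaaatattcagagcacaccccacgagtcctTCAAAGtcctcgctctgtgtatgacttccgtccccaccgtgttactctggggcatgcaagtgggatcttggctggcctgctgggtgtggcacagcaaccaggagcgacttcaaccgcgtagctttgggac
Slc38a5: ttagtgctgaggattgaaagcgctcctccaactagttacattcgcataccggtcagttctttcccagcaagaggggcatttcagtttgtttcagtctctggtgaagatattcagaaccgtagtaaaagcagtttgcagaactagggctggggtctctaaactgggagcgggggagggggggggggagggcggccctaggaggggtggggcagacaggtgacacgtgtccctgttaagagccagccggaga

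Positions are counted back from the base before the start. The first base of TCAAAG within the motif lies at −215 in Cmah, −208 in Selp, −82 in Slc19a3, −152 in Islr2 and −144 in Stra6. Genes which rose and genes which fell both carry the motif. Over all measured genes 2.64% of 18110 promoters of this length, from 14453 genes, held ATCAAAG. The share was 2.66% for stricter-core genes that rose and 2.71% for those that fell. Among those that fell by at least 2 log2 units it was 6.56% (8 of 122 promoters), and among those that rose by as much 2.89% (5 of 173). TCAAAG stood in 12.0% of all promoters, 16.2% of the strong rises and 14.8% of the strong falls. These shares count promoters, whereas the 5 of 25 counts genes with a match before any listed start. The share of all genes counted in that way was not taken, so the 5 of 25 has no baseline here. These are descriptions of letters in a window and were not tested.

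Feedback genes and targets of beta-catenin in part fell. Of 24 measured, 10 were lower and 5 higher, with a median of −0.23, against 9.91% and 14% of all genes. Axin2, a feedback inhibitor of the pathway, read 8.5, 7.37 and 7.35 in Fz4-/-, 7.40, 8.37 and 7.77 in Lrp5-/- and 7.68, 8.08 and 8.44 in Norrin KO, against 10.11 to 10.99 in wild type with a median of 10.50. All mutant arrays were below all wild-type arrays, and the fall was 2.64 ± 0.22 on the log2 scale (adjusted p = 4.87e-07). Tnfrsf19, a receptor of the TNF receptor family, lay between 5.84 and 8.16 against 10.71 to 11.46, also without overlap, a fall of 3.92. Apcdd1, a Wnt inhibitor, fell by 2.12 and Notum, an enzyme that inactivates Wnt proteins, by 1.72. The proto-oncogene Myc went the other way, at 1.98. Of the receptor complex itself, Fzd4, Lrp5 and Lrp6 were lower over the mean, a mean that holds the arrays in which Fzd4 or Lrp5 was deleted, and Tspan12 (0.35) did not pass. Without the Lrp5-/- group the mean difference of Lrp5 was 0.22. With the macrophage covariate 9 beta-catenin targets were lower and 4 higher, and 1 gene of the receptor complex was lower.

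Barrier carriers fell nearly throughout. Of 27 measured, 23 were lower and 1 higher, against 9.91% and 14% of all genes. In each mutant 19 fell, and the median was −1.77. Besides the 4 carriers among the largest falls, Mfsd2a, the transporter of lysophospholipids with omega-3 chains, read 8.26, 8.18 and 7.18 in Fz4-/-, 8.23, 8.26 and 7.47 in Lrp5-/- and 7.96, 7.67 and 8.11 in Norrin KO, against 11.87 to 12.17 in wild type. The mutants overlapped with one another and not with wild type, and the fall was 4.07 ± 0.17. The nucleoside carrier Slc29a1 was the exception, at 1.18. Slc4a4, Slc6a17 and Slc1a4 did not pass. With mean macrophage signal as a covariate 20 barrier carriers were lower.

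Genes typical of neural endothelium fell in 29 of 33 cases, with 1 higher and a median of −1.38, and 26 had no overlap between mutant and wild-type arrays (8.29% of all genes, 3.53% with the mutants below). The tight junction protein occludin, gene Ocln, read 7.95, 8.19 and 7.19 in Fz4-/-, 8.65, 9.12 and 8.87 in Lrp5-/- and 7.08, 8.44 and 8.57 in Norrin KO, against 11.62 to 12.22 in wild type. The Lrp5-/- arrays were the highest of the mutants and still below wild type, and the fall was 3.77. Edn3, the peptide endothelin 3, lay between 4.97 and 5.69 on mutant arrays and between 8.68 and 9.83 in wild type, a fall of 3.71 in which the 3 mutants gave −3.68, −3.66 and −3.79. With the macrophage covariate 24 neural endothelial genes were lower. Among 26 genes of tight and adherens junctions 7 were lower and 4 higher, with a median of −0.22. Ocln, Lsr (−3.48), which marks contacts of 3 cells, Cldn5 (−1.38), the claudin of barrier vessels, and Cgnl1 (−1.04), a cingulin-like protein, fell, Jam3 (1.46) rose and Ctnnb1 (−0.22), beta-catenin itself, did not pass. The covariate left 5 junction genes lower and 2 higher.

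Genes typical of peripheral capillaries rose. Of 20 measured, 16 were higher and 0 lower by limma (also 0 lower at an unadjusted p under 0.05), 14 rose in each mutant, and the median was 3.27. Meox2, a homeobox factor, read 7.17, 7.63 and 6.98 in Fz4-/-, 5.66, 7.52 and 6.65 in Lrp5-/- and 9.36, 7.95 and 8.54 in Norrin KO, against 3.21 to 5.14 in wild type. The Norrin KO arrays were the highest, wild type 4 came close to Lrp5-/- 1 without overlap, and the rise was 3.71 ± 0.34. Pparg, the nuclear receptor of lipid storage, rose by 3.00, with differences of 2.67, 2.13 and 4.19 in Fz4-/-, Lrp5-/- and Norrin KO. Tcf15, Sgk1, Aqp7 and Rgcc did not pass. With the macrophage covariate 15 peripheral capillary genes were higher. Of 12 genes of fenestrae and caveolae 6 were higher and 3 lower (median 0.40), and after Plvap and Gpihbp1 the largest changes were those of the coat proteins Cavin3 (1.26) and Cavin2 (−0.95), which went opposite ways. The covariate left 5 of them higher and 1 lower.

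**Figure D3:**
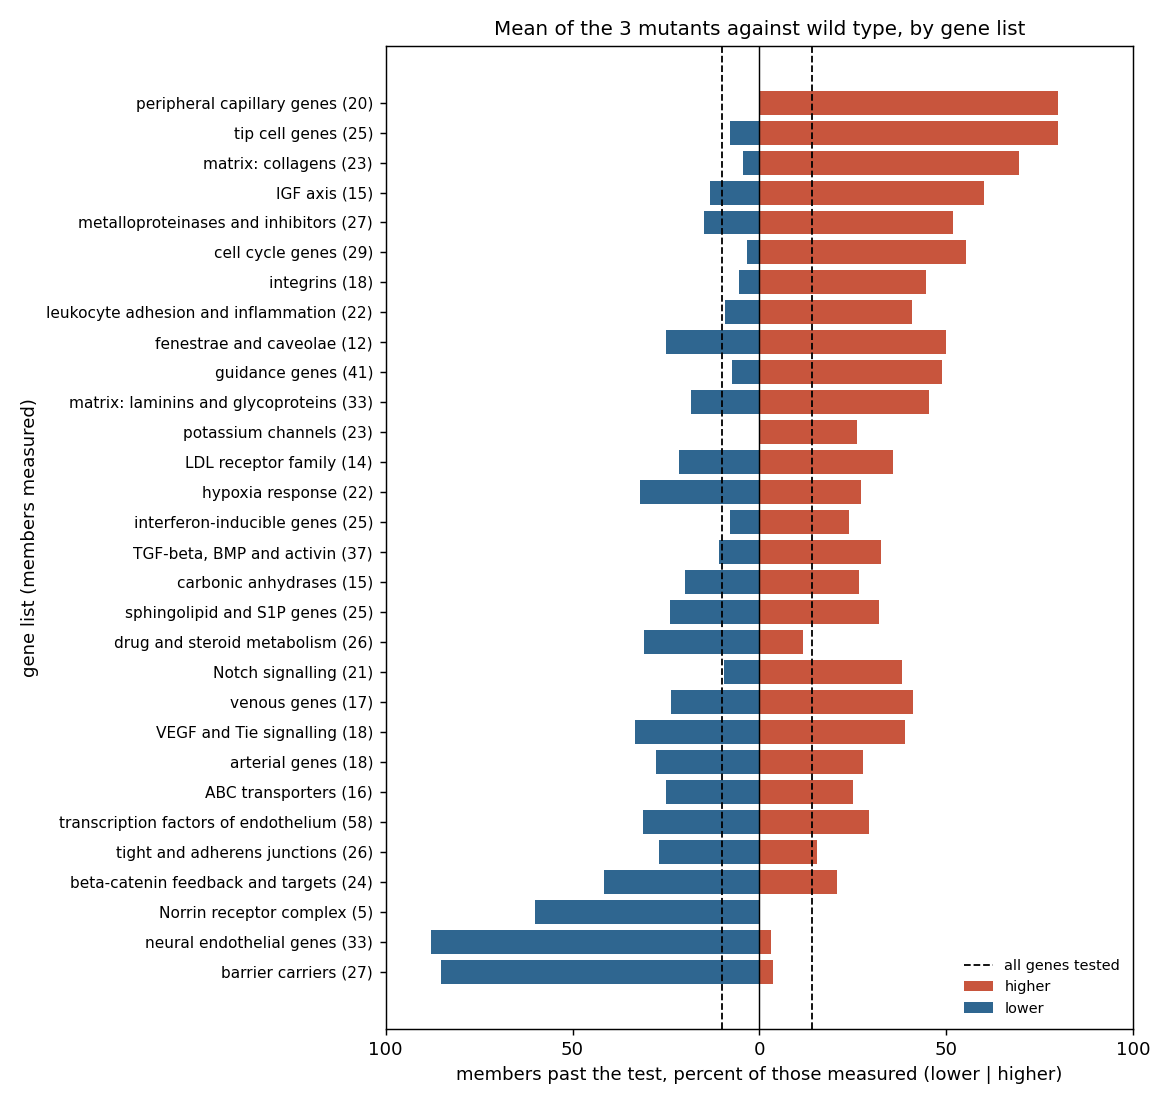
Share of the measured members of each gene list that passed the test over the mean of the 3 mutants, as bars to the right for higher and to the left for lower, with dashed lines at the shares over all genes tested (14% and 9.91%). Peripheral capillary genes extend furthest to the right (16 of 20) and neural endothelial genes furthest to the left (29 of 33).

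Tip cell genes, which mark the leading cells of vascular sprouts, rose in 20 of 25 cases, with 2 lower and a median of 1.21. Esm1, Kcne3 and Apln were described above; Ramp3 (3.91), a partner of the adrenomedullin receptor, and Ednrb (3.55), an endothelin receptor, also rose. Pdgfb (−0.54), which recruits pericytes, and the peptide gene Adm (−0.46) fell, and Cd34 (0.03) did not pass. With the macrophage covariate 17 tip cell genes were higher. Of 18 genes of VEGF and Tie signalling 7 were higher and 6 lower with a median of 0.02. Angpt2, the ligand of remodelling vessels, lay between 10.38 and 11.31 on mutant arrays and between 8.51 and 9.20 in wild type, with no overlap and a rise of 2.01 ± 0.12. Angptl4, an inhibitor of lipoprotein lipase, lay between 6.58 and 8.54 against 10.11 to 10.86 and fell by 3.03. With the covariate 6 genes of VEGF and Tie signalling were higher and 3 lower.

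Matrix genes rose more often than they fell. Of 23 collagen genes 16 were higher and 1 lower, with a median of 0.66. After Col15a1, the membrane collagen Col13a1 rose by 4.61 and the microfibrillar Col6a3 by 3.64. Col6a3 read 8.67, 8.71 and 8.75 in Fz4-/-, 7.45, 8.11 and 7.55 in Lrp5-/- and 9.14, 8.98 and 9.56 in Norrin KO, against 3.43 to 6.13 in wild type, so the Lrp5-/- arrays were the lowest mutants and did not reach the wild-type range. Of 33 laminins and glycoproteins 15 were higher and 6 lower (median 0.36). Emilin2 (2.41) and the nidogen Nid2 (2.35) rose and the proteoglycan Spock2 (−3.06) fell. Of 18 integrins 8 were higher and 1 lower (median 0.42), led by Itgb3, the beta chain of the vitronectin receptor, at 2.90. With the macrophage covariate 14 collagens were higher and 1 lower, 11 laminins and glycoproteins higher and 3 lower, and 5 integrins higher.

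Of 27 metalloproteinases and inhibitors 14 were higher and 4 lower, with a median of 0.48. Mmp2, gelatinase A, read 9.47, 8.82 and 9.47 in Fz4-/-, 8.09, 8.78 and 8.13 in Lrp5-/- and 10.70, 9.98 and 10.68 in Norrin KO, against 4.37 to 6.02 in wild type. Groups of mutants and wild type did not overlap, the rise was 4.21 ± 0.28, and the mutants also differed from one another. Timp1 (3.06), an inhibitor of these enzymes, rose beside Mmp14 (2.39), which activates Mmp2. The macrophage covariate left 8 genes of this list higher and 1 lower.

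The 5 largest changes among genes of the TGF-beta superfamily were rises. Of 37 genes 12 were higher and 4 lower, and the median was 0.16. After Inhbb, Bmp6 read 9.07, 8.67 and 8.91 in Fz4-/-, 7.55, 8.53 and 8.01 in Lrp5-/- and 8.65, 8.29 and 8.5 in Norrin KO, against 4.70 to 5.72 in wild type, a rise of 3.30 without overlap. Tgfbi, a matrix protein induced by TGF-beta, lay between 11.11 and 12.23 against 8.27 to 8.68 and rose by 3.00 ± 0.10. Bmper (2.64), a BMP modulator, and Tgfb1 (1.72) rose too. Of 15 genes of the IGF axis 9 were higher and 2 lower (median 0.54). The ligand Igf1 lay between 7.82 and 9.88 on mutant arrays and between 5.48 and 6.92 in wild type and rose by 2.67, whereas its receptor Igf1r lay between 9.20 and 10.74 against 11.89 to 12.12 and fell by 1.74. Ligand and receptor thus moved in opposite directions, each without overlap. In the fit with the macrophage covariate 8 TGF-beta superfamily genes were higher and 2 lower, and 6 IGF axis genes higher and 1 lower.

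Of 41 guidance genes 20 were higher and 3 lower, with a median of 0.39. The semaphorin Sema3c read 6.99, 7.03 and 7.95 in Fz4-/-, 7.86, 8.77 and 8.69 in Lrp5-/- and 8.69, 7.88 and 7.21 in Norrin KO, against 11.16 to 11.86 in wild type, a fall of 3.70. Its relative Sema3f lay between 7.91 and 9.53 against 5.26 to 5.91 and rose by 3.10, so secreted semaphorins of 1 class went opposite ways. The repellent Slit3 rose by 2.04. Of 21 Notch genes 8 were higher and 2 lower (median 0.09), with the ligands Dll1 at 1.14 and Dll4 at 0.79 and the target Hes1 at −0.62. In the fit with the macrophage covariate 14 guidance genes were higher and 3 lower, and 2 Notch signalling genes were higher.

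Transcription factors of endothelium moved both ways, with 17 of 58 higher, 18 lower and a median of −0.11. With mean macrophage signal as a covariate 9 were higher and 14 lower. Those that fell furthest were the T-box factor Tbx1 (−3.19) and the forkhead factor Foxl2 (−2.84). Tbx1 read 5.59, 6.20 and 5.68 in Fz4-/-, 5.58, 6.88 and 6.42 in Lrp5-/- and 7.46, 7.44 and 7.26 in Norrin KO, against 9.35 to 9.87 in wild type, and was highest among the mutants in Norrin KO. Meox2, Pparg and Ebf3 (2.47) rose furthest. Erg (0.21), a factor of all endothelium, did not pass.

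Markers of vessel type moved both ways. Of 18 arterial genes 5 were higher and 5 lower (median −0.03). The arteriole marker Gkn3 lay between 6.09 and 8.49 on mutant arrays and between 10.82 and 11.61 in wild type and fell by 3.70, whereas the gap junction gene Gja5 was at 1.22. Of 17 venous genes 7 were higher and 4 lower (median 0.05). Selp, Lrg1, Sele and Ackr1, which mark venules and take part in leukocyte capture, rose by 5.01, 4.17, 3.56 and 3.03. Lrg1, a secreted leucine-rich glycoprotein, lay between 9.71 and 10.76 against 4.68 to 7.48, without overlap. Of 22 genes of leukocyte adhesion and inflammation 9 were higher and 2 lower (median 0.41). Ccl7, a chemokine at 1.81, was at −0.45 with mean macrophage signal as a covariate, and Icam1 (0.07) did not pass. Under that covariate 3 arterial genes were higher and 5 lower, 6 venous genes higher and 2 lower, and 6 leukocyte adhesion genes higher and 2 lower.

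Enzymes and channels held single large changes among small ones. Over all genes 14% were higher and 9.91% lower. Of 25 sphingolipid genes 8 were higher and 6 lower (median 0.13), with the phosphatase Sgpp2 at −4.10 and the lipid phosphatase Plpp3 at 2.05. Of 15 carbonic anhydrases 4 were higher and 3 lower (median 0.16). Car4 and Car5a fell while Car8 (3.30), which lacks enzyme activity, and Car13 (2.79) rose. Of 26 genes of drug and steroid metabolism 3 were higher and 8 lower (median 0.11). The carboxylesterase Ces2e lay between 8.65 and 9.71 against 4.31 to 6.09 and rose by 4.05, and Gsta4, a glutathione transferase, fell by 2.93. Of 16 ABC transporters 4 were higher and 4 lower (median −0.08), the drug pump Abcb1a being at −1.62 and Abcc3 at 1.83. The macrophage covariate gave 6 higher and 5 lower sphingolipid genes, 2 and 2 carbonic anhydrases, 3 and 5 genes of drug and steroid metabolism, and 2 and 4 ABC transporters.

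Of 14 LDL receptor family genes 5 were higher and 3 lower (median 0.29). Lrp8, a receptor for reelin and apolipoprotein E, lay between 6.79 and 8.12 on mutant arrays against 11.46 to 11.84 and fell by 4.12, with its other probe sets at −4.08 and −1.56. Of 23 potassium channel genes 6 were higher and 0 lower by limma (also 0 at an unadjusted p under 0.05, median 0.32). Over all genes 14% were higher and 9.91% lower. Kcnk5 was at 3.53 after Kcne3. Of 29 cell cycle genes 16 were higher and 1 lower (median 0.46). Birc5, survivin, read 8.36, 9.24 and 8.79 in Fz4-/-, 7.58, 8.33 and 8.27 in Lrp5-/- and 8.62, 8.45 and 8.75 in Norrin KO, against 5.14 to 5.91 in wild type, and rose by 2.86 without overlap. The mitotic kinase Cdk1 rose by 2.62, and Top2a (−0.85) did not pass. Under the macrophage covariate 9 cell cycle genes and 3 potassium channel genes were higher, and 3 LDL receptor family genes were higher and 1 lower. Of 22 hypoxia response genes 6 were higher and 7 lower, with a median of 0.27, among them Egln3 (1.66), an oxygen sensor, and Ankrd37 (−1.72). Of 25 interferon-inducible genes 6 were higher and 2 lower (median 0.20), against 14% and 9.91% of all genes. With the macrophage covariate the counts were 4 and 2 for the hypoxia response, and 1 interferon-inducible gene passed, lower.

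Markers of other cells were measured beside these groups, where 14% of all genes were higher and 9.91% lower. Of the 19 macrophage and microglia markers 11 were higher and 0 lower by limma (also 0 at an unadjusted p under 0.05, median 0.68). Mrc1, the mannose receptor, read 9.08, 10.08 and 9.55 in Fz4-/-, 8.80, 9.51 and 9.42 in Lrp5-/- and 10.20, 11.07 and 9.99 in Norrin KO, against 3.74 to 7.42 in wild type, and rose by 3.67 ± 0.47. The antigen-presenting genes H2-Ab1 (2.33) and H2-Aa (2.28), the chemokine gene Pf4 (2.00) and the lysozyme gene Lyz2 (1.75) rose, whereas Cx3cr1 (−0.17), the fractalkine receptor of microglia, Itgam (−0.02), an integrin chain, and Csf1r (0.28), which binds a growth factor, did not pass. Of 6 lymphatic markers 5 were higher (median 0.96), with Mmrn1 at 2.32 and Lyve1 at 1.83, genes that some macrophages or other endothelia also express. Of 12 pericyte and smooth muscle markers 4 were higher and 1 lower (median 0.26). Against 23.9% of all genes called in either direction, rod markers passed in 1 of 9 cases, cone markers in 2 of 6, bipolar and amacrine markers in 3 of 8, ganglion cell markers in 2 of 7, Müller glia markers in 4 of 10 and astrocyte markers in 0 of 4 (limma, 1 at an unadjusted p under 0.05). Fibroblast markers passed in 3 of 7 cases, pigment epithelium markers in 3 of 9, red blood cell markers in 2 of 5, lymphocyte markers in 1 of 7 and platelet markers in 0 of 4 (limma, 1 at an unadjusted p under 0.05). The medians of these 11 lists lay between −0.35 and 0.59. Thy1, listed for ganglion cells, was at 4.27. With the mean signal of the macrophage markers as a covariate 3 macrophage markers were higher and 5 lower. The covariate is the mean of those same macrophage markers, so in that fit their differences average 0 and fall both ways by construction. In the same fit 3 lymphatic markers were higher, 2 pericyte markers higher and 1 lower, and 5 Müller glia markers higher. The part of these cells in the genes above was not tested beyond the macrophage covariate.

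Most genes of the stricter core were not called as different in size among the 3 mutants. Among the mutant groups, with no wild-type array in the comparison, a moderated F test called 1269 genes (6.97% of those tested). Of the stricter core 99 of 817 rising and 53 of 560 falling genes were called, or 12.1% and 9.46%, shares whose difference from that of all genes was not tested. With the actin gap as a covariate 123 of all genes (0.676%) and 14 and 13 of the stricter core (1.71% and 2.32%) were called, and without the 3 arrays that stood apart 279 (1.53%) and 11 and 30 (1.35% and 5.36%). The median range of the 3 differences from wild type was 0.48 and 0.36 log2 units. Among rising genes the smallest of the 3 differences was that of Lrp5-/- for 547, of Norrin KO for 210 and of Fz4-/- for 60, with median differences of 1.13, 1.49 and 1.45. Among falling genes it was that of Norrin KO for 253, of Lrp5-/- for 186 and of Fz4-/- for 121, while the medians were 1.16, 1.15 and 1.17 below wild type. The 3 differences share their wild-type arrays, so these orders are descriptions. The upper quartile of signal was 8.11 on Lrp5-/- 1 and 8.258 on Lrp5-/- 3, both among the arrays that stood apart. On the other mutant arrays it was 8.334 to 8.457, and the part of this in the orders was not tested. Of the 4208 core genes 437 were called by the F test, 54 with the actin gap as a covariate, 173 with Xist and Eif2s3y as covariates and 105 without the 3 arrays that stood apart. Leaving out single arrays gave 165 without Norrin KO 1, 187 without Lrp5-/- 3, 220 without Norrin KO 3 and 253 without Lrp5-/- 1, so leaving out any of these arrays moved the count by over 1.5 times.

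**Figure D4:**
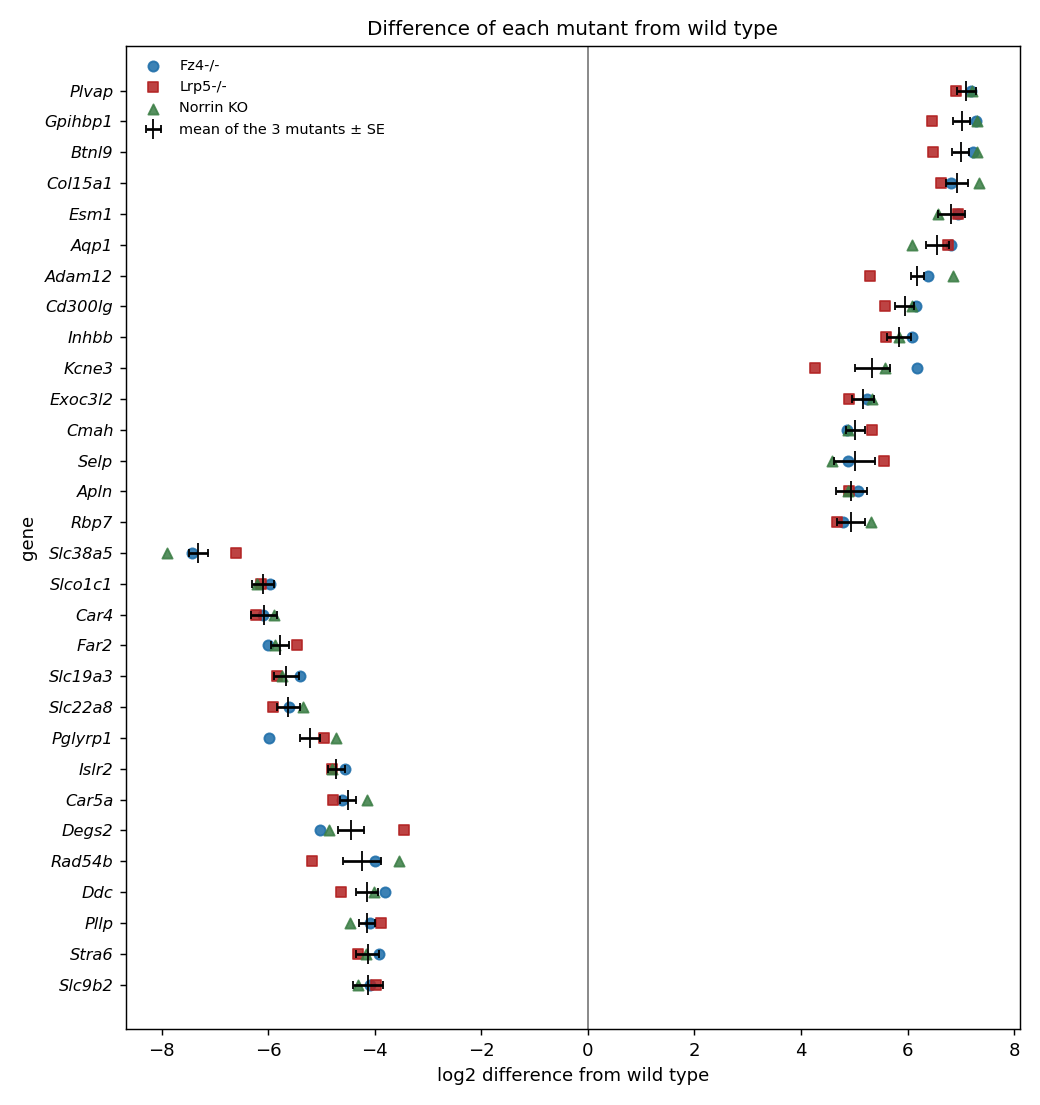
Log2 difference from wild type of each mutant (circle Fz4-/-, square Lrp5-/-, triangle Norrin KO) and of their mean with its SE (bar) for the 15 largest rises and the 15 largest falls. The 3 symbols lie within 0.19 to 1.92 log2 units of each other, and 4 of the 30 genes, Adam12, Slc38a5, Pglyrp1 and Degs2, differ among the mutants by the F test.

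Besides the deleted Fzd4, the core genes that differed most among the mutants were led by Vsig4, a complement receptor of tissue macrophages. It was 2.93 above wild type in Fz4-/-, 0.11 in Lrp5-/- and 4.15 in Norrin KO (adjusted p = 4.05e-05 among mutants). Slc10a6, a carrier of sulfated steroids, was at 1.11, 0.36 and 3.45, and Mmrn1, a multimerin, at 2.74, 1.13 and 3.08. Each was lowest in Lrp5-/- and highest in Norrin KO. The gene model Gm14137 went another way, at 2.17, 1.71 and 0.48. Among falling genes Lsr was at −4.00, −2.46 and −3.98 and Pcp4l1, a small calmodulin-binding relative, at −1.52, −0.24 and −2.21. Ctr9, of the PAF complex, was at −1.05, −3.11 and −0.50, and its other 4 probe sets gave −0.06 to −0.64 over the mean. The core asks only for 1 sign in every mutant, and some of these genes did not pass in each. Against wild type, Vsig4, Slc10a6 and Pcp4l1 did not pass in Lrp5-/- (adjusted p = 0.869, 0.528 and 0.47, limma). Nor did Ctr9 in Norrin KO (adjusted p = 0.183, limma).

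A pair of comparisons with no control array in common was made by setting Fz4-/- against wild type 1 to 3 and Lrp5-/- against wild type 4 to 6. The first called 1186 genes higher (6.52%) and 804 lower (4.42%), the second 875 higher (4.81%) and 752 lower (4.13%). Of these, 692 were higher in both (3.8%) and 536 lower in both (2.95%), and 0 passed in opposite directions by limma, with 6 at an unadjusted p under 0.05. The 1228 genes were 61.7% of the calls of the first comparison and 75.5% of those of the second. Without the 3 arrays that stood apart 480 genes passed both, and 2161 did with the matched arrays as a fixed block.

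**Figure D5:**
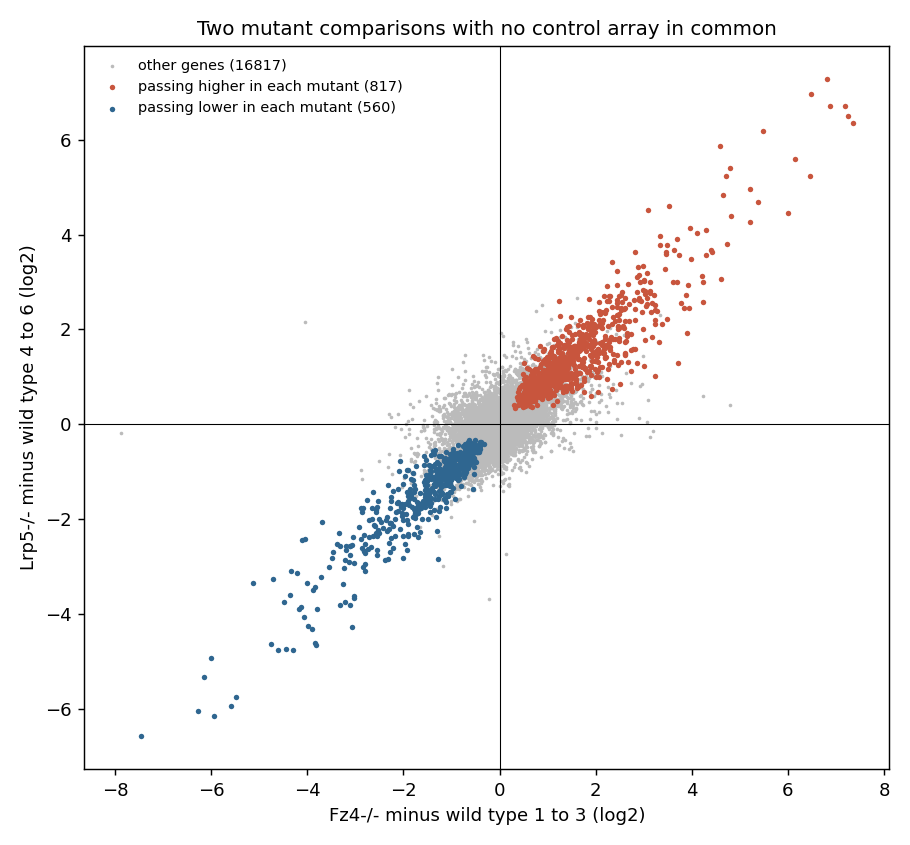
Log2 difference of Fz4-/- from wild type 1 to 3 (horizontal) and of Lrp5-/- from wild type 4 to 6 (vertical), 1 point per gene, with the 817 and 560 genes that passed higher or lower in each mutant in colour. The colour was assigned from these same arrays. Over all genes 692 pass higher in both comparisons and 536 lower.

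Other probe sets of the same genes gave a further measurement. The stricter core had 1519 probe sets besides those that stood for its genes. Of these, 1388 (91.4%) had the same sign, 980 (64.5%) also passed, and 6 passed the opposite way. Among the 866 with a mean signal above 6, 709 (81.9%) passed the same way and 3 the opposite way, while 18.4% of the 16764 second probe sets of all genes, at any signal, passed in either direction. Gaps between probe sets were large for dim ones. Lsr fell by 3.48 on the probe set used and was at −0.07 on the other, Cmah rose by 5.02 while its other 5 ranged from −0.11 to 3.32, and Exoc3l2 rose by 5.16 against 0.28 on a probe set near background.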

How the data were processed

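Each of the 15 samples was hybridized to 1 Affymetrix mouse array of 45101 probe sets. The authors deposited log2 values, which come from RMA (per the submitters' processing notes). Its version and settings are not given in the sources. RMA normalizes the arrays to each other, and probe sets near background compress differences. The deposited log2 values were used as they are.

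Of the probe sets 34958 carried 1 gene symbol, 932 several and 9211 none. Each gene was read from its probe set of highest mean signal, for 18194 genes in all. More than 1 probe set was present for 9012. Entrez identifiers matched 18033 genes to RefSeq, and 0 symbols changed. No filter on dim genes was applied, and array number limits the precision.

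Group means of the 4 groups were fitted in limma 3.58.1 (lmFit, contrasts.fit, eBayes) under R 4.3.3, and p-values were adjusted by Benjamini-Hochberg over all genes, with a threshold of 0.05. Simulated data had 100 genes changed by 2-fold and 100 by 4-fold in all mutants among 18194. The mean contrast recovered 78 and 99 with 5 false calls, and 43 and 91 passed in each mutant on its own. The simulated noise was drawn independently for each gene and array. Structure shared among the real arrays was not represented, so the false calls do not measure error in these data.

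Named genes were the 15 largest rises and falls that passed in each mutant with no overlap of arrays, the 4 core genes each way with the largest F statistic and a mean change of at least 1, the targeted genes and up to 5 members of each of 45 gene lists. Members that went against their list or did not pass, Stard9 and Selplg were named after their values were seen. The members and lists were chosen with earlier results of these data known.

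Alternatives were other normalizations, probe set rules, variance settings, covariates, a 2-fold minimum, a replicate block, and leaving out arrays or mutant groups. Deviations from group means of Fz4-/- and wild type of the same number correlated at 0.276 to 0.337, and those of Lrp5-/- 1, 2 and 3 with wild type 4, 5 and 6 at 0.653, 0.511 and 0.293. Fits with these arrays matched were added after the data were seen.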

Additional observations from a re-analysis of the deposited data

Results flagged for a closer look

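Among the 151 named genes, 7 had 1 wild-type array far from the other 5, and chance alone flags about 1 in 20 such groups. Wild type 2 was high for Gpihbp1 (5.52, others 4.27 to 4.70) and for Apln (5.48, others 3.24 to 4.07). Wild type 4 was high for Ndp (4.81, others 4.28 to 4.47) and low for Itgb3 (5.63, others 7.48 to 8.34). Wild type 5 was low for Pglyrp1 (12.51, others 12.80 to 12.90) and for Car8 (3.26, others 4.25 to 4.66), and wild type 6 was low for Stc2 (4.17, others 5.27 to 5.69). None of these arrays reached the mutant range for Gpihbp1, Apln, Pglyrp1, Car8 or Itgb3.

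For 31 named genes the 3 mutants differed from one another by the moderated F test at an adjusted p under 0.05, and the range of their log2 differences from wild type is given for each. Apart from the deleted genes, Fzd4 (7.67) and Lrp5 (3.05), the range was widest for Vsig4 (4.03), Slc10a6 (3.09), Ctr9 (2.61), the guidance ligand Slit2 (2.23), the collagen Col6a2 (2.18), Mmp2 (2.12) and the nuclear receptor Pparg (2.06). It was 1.97 for Pcp4l1, 1.94 for Mmrn1, 1.90 for the chemokine decoy Ackr1, 1.85 for Gja5, 1.73 for the integrin Itga9 and 1.69 for Gm14137. Degs2 (1.58), Tbx1 (1.57), Car13 (1.56), Adam12 (1.55), Lsr (1.54) and Fbln2 (1.40) came next. Smaller ranges were those of Slc38a5 (1.30), Pglyrp1 (1.26), Sema3f (1.26), Col5a3 (1.25), Angptl4 (1.21) and Kcnk5 (1.21). Cavin3 (0.95), Ankrd37 (0.94), Abcb1a (0.74) and Abcc4 (0.66) had the smallest. The Norrin KO arrays carry the widest actin gaps and low Xist, and the part of these in the differences was not tested beyond the covariate counts.

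Probe sets without a single gene symbol stood outside the gene comparisons. Of 10092 such probe sets, 162 passed in each mutant with the same sign, 64 higher and 98 lower.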

How the results depend on the processing

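Counts over the mean of the mutants stayed within 1.5 times of the 2554 higher and 1803 lower genes under renewed quantile normalization, centring, the filter on dim genes, other probe set rules, other variance settings and a fit of 2 groups. Centring changed the share of higher calls from 58.6% to 56.5%. With at least a 2-fold change, 936 were higher and 468 lower (core 922 and 463, 223 differing among mutants, 347 lower in each mutant). With mean macrophage signal as a covariate, 940 were higher and 1114 lower (core 937 and 1110, 391 higher in each mutant against 817), and Ccl7 turned to −0.45. With Xist and Eif2s3y as covariates 173 core genes differed among mutants and 355 were lower in each mutant, and with the actin gap 54 differed. Without the 3 arrays that stood apart 105 differed, 480 passed both comparisons with separate controls, and 398 were higher and 275 lower in each mutant. Without the Lrp5-/- group 1365 genes were higher in each remaining mutant and Lrp5 turned to 0.22, and without the Norrin KO group 880 were lower against 560. Leaving out each array gave 2223 to 2710 higher and 1495 to 1900 lower genes, core counts of 2153 to 2643 and 1463 to 1835, 165 to 568 core genes that differed among mutants, 915 to 1366 genes passing both separate-control comparisons, and 557 to 911 higher and 463 to 621 lower in each mutant. The cause of these shifts was not tested, except that a minimum change removes smaller changes and fewer arrays or mutants change what is required.

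The labels do not say that a replicate number marks a shared origin. Deviations of same-numbered Fz4-/- and wild-type arrays correlated at 0.276 to 0.337, and those of the other 15 same-numbered pairs at −0.238 to 0.157. Those of Lrp5-/- 1, 2 and 3 correlated best with wild type 4, 5 and 6 in that order (0.653, 0.511 and 0.293). Xist and Eif2s3y were also alike within these pairs, such as Lrp5-/- 3 (12.21 and 3.21) with wild type 6 (12.27 and 2.81). Fz4-/- 3 (11.88 and 3.25) likewise went with wild type 3 (11.86 and 2.69). The main fit uses no matching, and the Norrin KO arrays have no matched wild-type array. With the arrays so matched as a random block, chosen after the data were seen, 3492 genes were higher and 2752 lower, and all 151 named genes kept their call and direction, and with them as a fixed block 2161 genes passed both comparisons with separate controls. With the number as a replicate block 1402 genes were higher and 1013 lower, the core held 1392 and 1001, 218 core genes differed among mutants and 498 were higher in each. Of the 151 named genes 143 kept their call and direction under the block, and 127 did with the macrophage covariate. The comparison with separate controls was not run with covariates, the replicate number as a block, the trend, the 2-fold minimum or left-out groups, and the fit of 2 groups gives no core count. Near background, a signal under 5, the size of a change is compressed.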

Other observations

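Genes of the stricter core included neighbours along the genome. Of 18123 pairs of adjacent measured genes, 157 had both members in the stricter core, 128 moving the same way and 29 opposite ways. The stricter core held 7.57% of all genes, 817 higher and 560 lower. How many such pairs these shares alone would give was not worked out, so the counts are descriptions. The pairs with the largest smaller change were the selectin genes Sele (3.56) and Selp (5.01) on chromosome 1, and Foxl2os (−3.27) and Foxl2 (−2.84) on chromosome 9, an antisense pair whose signals a probe cannot always tell apart. Next came Mpp3 (2.61) and Cd300lg (5.94) on chromosome 11 and the cytokine receptor chains Csf2rb2 (2.58) and Csf2rb (2.95) on chromosome 15. Mfsd2a (−4.07) and Mycl (−2.56) on chromosome 4, Slc7a5 (−2.22) and Car5a (−4.51) on chromosome 8, and the monoamine oxidase genes Maoa (−2.0) and Maob (−2.51) on the X chromosome fell together. Csf2rb2 and Csf2rb are close copies, and their probe sets may share signal. These pairs were chosen after their values were seen.

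Among probe sets without a single symbol the largest change was that of 1438737_at, whose mean went from 10.0 in wild type to 2.79 in the mutants, a difference of −7.21 ± 0.15 (SE). Its signal was 9.60 to 10.28 on the 6 wild-type arrays and 2.50 to 3.32 on the 9 mutant arrays, with no overlap.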
